A study of Homo sapiens with 12 samples.

Results

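The human pancreatic ductal adenocarcinoma (PDAC) cell lines, MIA PaCa-2 and Capan-1, were compared as they stood with a scrambled control hairpin (shCtrl), before focal adhesion kinase (FAK) was lowered. The comparison used 4 of the 12 arrays of the series, 2 of MIA PaCa-2 shCtrl and 2 of Capan-1 shCtrl. A probe was included when it was not a spike-in control and its detection p was under 0.05 in both arrays of at least 1 line, which held for 17576 of 47228 probes. The detection p compares the brightness of a probe with that of negative control beads. At the edge of this rule, the larger detection p of the better measured line was 0.04935 for the last probe inside and 0.05065 for the first probe outside. Of the 29652 probes outside, 6279 were detected in a single array of 1 line or of each line and 23373 in none of the 4 arrays.

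All cells carried a doxycycline-inducible hairpin in the PLKO.1 tet-on backbone, were kept as puromycin-resistant populations and received 50 ng/ml doxycycline for 96 hours. MIA PaCa-2 was grown in 3.5 ug/ml puromycin and Capan-1 in 1.5 ug/ml, so the dose and the line cannot be told apart. The other 8 arrays held the same lines with 1 of 2 hairpins against FAK, named sh1209 and sh1319, and served here to estimate the spread and to measure the line difference again. Nothing in the labels tells if the paired arrays of each group stem from different cultures, so p-values measure the spread between these arrays, which may be technical. In RNA from whole cultures, a lower level in each cell and fewer cells with a transcript cannot be told apart.

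Ductal epithelial cells are held together by E-cadherin junctions, tight junctions and desmosomes, and carry a skeleton of simple keratins. Carcinoma cells can lose these features and take on a vimentin skeleton, the change called epithelial-mesenchymal transition (EMT), which is driven by repressors such as ZEB1 and SNAI1. PDAC tumors are often described as classical, with genes of glandular epithelium such as mucins and trefoil factors, or as basal-like or quasi-mesenchymal. MIA PaCa-2 came from a primary tumor and Capan-1 from a liver metastasis.

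The 4 markers chosen for the comparison placed the lines apart on 3 counts and could not be read on the fourth. VIM, the mesenchymal filament vimentin, had log2 levels of 13.28 and 13.14 in the MIA PaCa-2 arrays and of 5.71 and 5.60 in the Capan-1 arrays. Levels here are background-corrected, quantile-normalized log2 intensities, and differences are MIA PaCa-2 minus Capan-1, so a negative value was higher in Capan-1. The VIM difference was 7.55 ± 0.13 (SE, n = 2 arrays a line; limma adjusted p = 3.71e-12). KRT19, the ductal keratin, ran the other way, at 6.05 and 6.02 in MIA PaCa-2 and 12.61 in both Capan-1 arrays (-6.58 ± 0.18, limma adjusted p = 1.43e-10).

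CDH1, which encodes E-cadherin, was not detected in MIA PaCa-2 (4.24 and 4.21) and was at 9.66 and 9.45 in Capan-1, at least 28.7-fold higher there. Such a bound sets the mean of the line that was detected against the lowest level of any detected probe on each array of the other line, or the probe's own level where that was higher. That lowest level was 4.60 to 4.71 in the 4 arrays. ZEB1 was not above background in either line, with levels of 4.17 and 4.22 in MIA PaCa-2 against 4.17 and 4.22 in Capan-1, and its single probe was detected in 0 of the 12 arrays. ZEB1 therefore could not be compared. Other epithelial and mesenchymal markers were mixed. EPCAM and KRT7 were detected in Capan-1 alone, at least 194.8-fold and 32.8-fold higher. KRT8 (-0.25) and KRT18 (-0.21), the keratins of all simple epithelia, did not pass the test, with limma adjusted p = 0.179 and 0.365. CDH2, the mesenchymal N-cadherin, was higher in Capan-1, where it stood at 5.91 and 5.94 against 4.70 and 4.30 without detection in MIA PaCa-2 (at least 2.33-fold). None of the 3 probes of FN1, fibronectin, was detected in both arrays of a line.

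**Figure D1:**
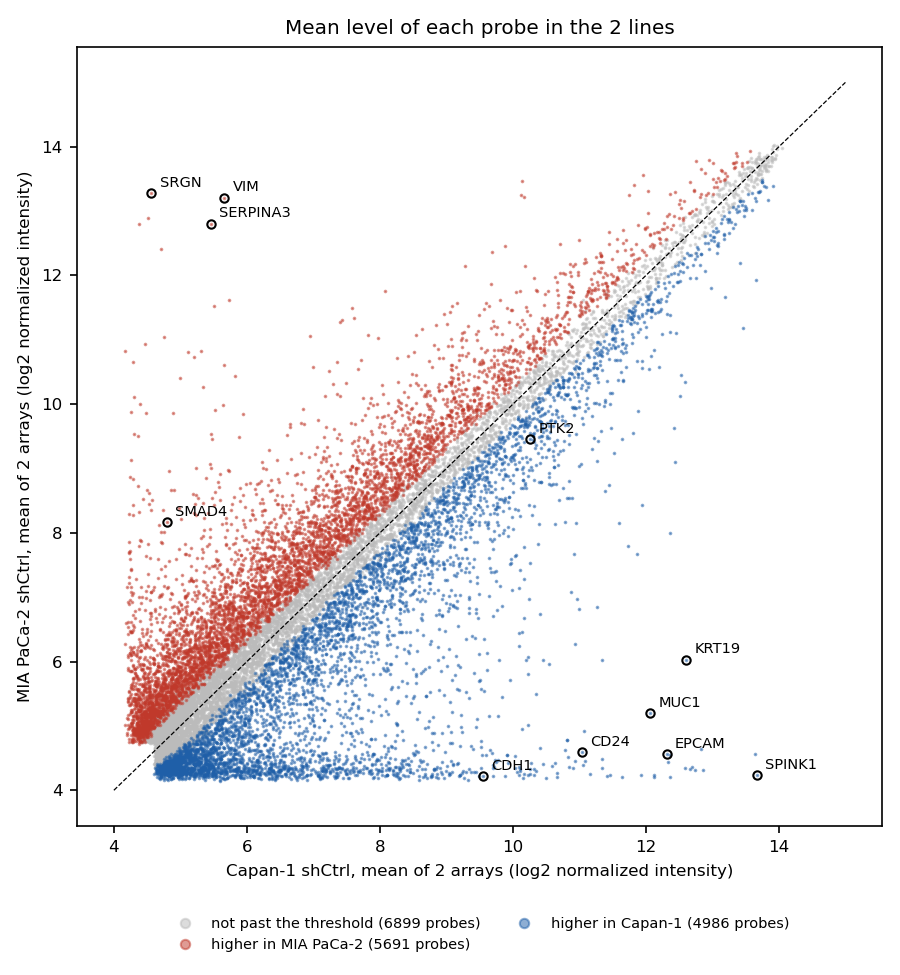
Mean log2 normalized intensity of the 17576 probes in Capan-1 shCtrl (x axis) and MIA PaCa-2 shCtrl (y axis), 2 arrays each, coloured by whether the probe passed an adjusted p of 0.05, with 11 genes circled and the line of equal levels dashed. VIM, SRGN and SERPINA3 lie far above that line and KRT19, MUC1, EPCAM, SPINK1 and CDH1 far below it, while PTK2 lies close to it.

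Promoters of junction genes were read because most of these genes were measured in Capan-1 alone and because ZEB1 and SNAI1 bind the E-box CAGGTG. ZEB1 itself was not above background in either line, and repression of these genes by either factor was not tested. RefSeq promoters (GRCh38.p14, 250 bases before to 50 after each listed start) were at hand for 19 of the 34 measured junction and polarity genes described further on, with 28 starts. CDH1 and EPCAM had no entry. The letters CAGGTG or their reverse complement CACCTG stood in 16 of these 28 windows (57.1%), against 18.8% of the 12496 windows of all measured genes, 20.6% of all 35116 windows and 1 of 20 windows of measured mesenchymal markers. The motif was not checked for overlap with others, and a match is a description of the sequence and not a binding site. The motif was found for 15 of the 19 junction genes, and none of those without it is shown. Shown are 3 junction genes detected in Capan-1 alone, CRB3 (at least 10.8-fold higher), RAB25 (at least 48.6-fold) and CLDN7 (at least 47.0-fold), and VIM for contrast, with both forms of the motif in capitals. These genes were picked for display by no rule, each with the listed start that had most matches.
CRB3, a polarity protein, plus strand, chr19:6464021-6464320, 5 matches: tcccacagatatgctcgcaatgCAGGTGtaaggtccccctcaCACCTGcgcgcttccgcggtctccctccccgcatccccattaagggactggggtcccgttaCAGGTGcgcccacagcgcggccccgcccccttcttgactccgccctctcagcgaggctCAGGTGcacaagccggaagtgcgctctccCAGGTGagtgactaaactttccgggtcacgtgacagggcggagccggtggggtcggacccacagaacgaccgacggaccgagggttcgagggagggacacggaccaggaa
RAB25, a GTPase of epithelial recycling, plus strand, chr1:156060910-156061209, 2 matches: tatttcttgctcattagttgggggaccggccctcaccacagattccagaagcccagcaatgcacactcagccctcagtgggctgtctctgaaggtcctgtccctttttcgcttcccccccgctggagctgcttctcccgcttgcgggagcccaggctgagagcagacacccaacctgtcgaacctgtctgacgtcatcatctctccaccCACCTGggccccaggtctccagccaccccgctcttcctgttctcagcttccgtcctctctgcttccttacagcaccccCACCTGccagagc
CLDN7, a claudin, minus strand, chr17:7262429-7262728, 5 matches, the other listed start having 0: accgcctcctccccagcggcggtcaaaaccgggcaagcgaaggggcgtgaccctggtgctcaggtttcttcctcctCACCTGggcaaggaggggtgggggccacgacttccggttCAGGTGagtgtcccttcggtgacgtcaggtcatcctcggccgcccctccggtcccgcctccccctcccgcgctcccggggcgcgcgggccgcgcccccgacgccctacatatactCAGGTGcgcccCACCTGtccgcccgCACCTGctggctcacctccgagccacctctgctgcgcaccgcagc
VIM, plus strand, chr10:17227991-17228290, 0 matches: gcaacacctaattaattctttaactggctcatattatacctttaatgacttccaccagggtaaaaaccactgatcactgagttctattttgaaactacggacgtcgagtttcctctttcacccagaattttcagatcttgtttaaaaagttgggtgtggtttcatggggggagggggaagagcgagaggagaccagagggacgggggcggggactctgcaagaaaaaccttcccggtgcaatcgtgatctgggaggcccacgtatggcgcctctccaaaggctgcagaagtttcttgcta

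Over the whole array, the lines differed for most probes. Of the 17576 probes, 10677 (60.7%) passed a limma adjusted p of 0.05, 5691 (32.4%) higher in MIA PaCa-2 and 4986 (28.4%) higher in Capan-1. With arrays scaled by their medians the balance turned, 7982 probes passing, 3608 of them higher in MIA PaCa-2 against 4374 higher in Capan-1. In the main test, 3970 of the 17576 probes (22.6%) passed with a difference of at least 1 in size. Of these, 1890 were higher in MIA PaCa-2 against 2080 higher in Capan-1, and 498 differed at least 8-fold. The smallest difference that passed was 0.24, and the median size over all probes was 0.49 against a median SD between replicate arrays of 0.12. The median difference was 0.05, near 0. Across probes, replicate arrays correlated at 0.993 for MIA PaCa-2 and 0.994 for Capan-1 and arrays of different lines at 0.859 to 0.861, probes not being independent of one another. Of the variance among the 4 arrays, 95.5% lay between the lines.

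More probes were detected in Capan-1. The MIA PaCa-2 shCtrl arrays detected 16601 and 16596 probes and the Capan-1 shCtrl arrays 18441 and 18585, and across all hairpins the ranges, 16259 to 17451 and 17898 to 19814, did not overlap. Probes detected in both arrays of Capan-1 and neither of MIA PaCa-2 numbered 2113, against 689 the other way round. A probe that entered through 1 line alone was likely to differ, so counts over a gene group describe it and are no support for a shift. Among the 12835 probes detected in all 4 arrays, 7627 (59.4%) passed, 4667 higher in MIA PaCa-2 against 2960 higher in Capan-1.

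Among probes detected in all 4 arrays, VIM had the largest excess in MIA PaCa-2. SERPINA3, a secreted serine protease inhibitor, followed at 12.85 and 12.76 against 5.53 and 5.38 (difference 7.35 ± 0.11, limma adjusted p = 1.59e-12). TM4SF18, a tetraspanning membrane protein, stood at 10.996 and 11.09 against 4.73 and 4.78 (6.29). The arrays of the lines lay far apart for both genes. CLDN11 (6.03), a claudin best known from myelin, CD81 (5.88), a tetraspanin, TPM2 (5.51), a tropomyosin of the actin skeleton, PRRX2 (4.97), a homeobox factor of mesenchyme, and TUBB2B (4.96), a neuronal beta-tubulin, made up the other 5 of the 8 largest.

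The highest-signal probes detected in MIA PaCa-2 and in neither Capan-1 array began with SRGN, the proteoglycan core protein serglycin, at 13.38 and 13.19 against 4.58 and 4.54 without detection, at least 411-fold. A second VIM probe (at least 294-fold) and a second TPM2 probe (at least 42.3-fold) gave the direction of the first. ID3, an inhibitor of helix-loop-helix factors, was at least 81.0-fold higher. PRND (at least 74.6-fold), which encodes the prion-like protein doppel, RGS4 (at least 66.4-fold), a brake on G protein signaling, CAVIN3 (at least 45.7-fold), a coat protein of caveolae, and NME4 (at least 38.8-fold), a mitochondrial nucleoside diphosphate kinase, completed the 8.

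In Capan-1, the largest excess among probes detected in all 4 arrays was that of MUC1, a membrane mucin of ductal cells, at 12.08 and 12.05 against 5.44 and 4.95 in MIA PaCa-2 (difference -6.87 ± 0.15, limma adjusted p = 2.72e-11). KRT19 came next, then BMP4, a bone morphogenetic protein, at 11.09 and 11.06 against 4.79 and 5.03 (-6.16). No MIA PaCa-2 array reached a Capan-1 array for these genes. The other 5 were TNFRSF21 (-5.31), a death receptor, PLAAT4 (-5.21), a retinoid-induced phospholipase listed as RARRES3, PLOD2 (-5.19), a lysyl hydroxylase of collagen, NAPRT (-4.85), which starts NAD synthesis from nicotinic acid, and ABHD17C (-4.66), a depalmitoylating enzyme.

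The probe of highest signal among those detected in Capan-1 and in neither MIA PaCa-2 array was that of SPINK1. This gene, the pancreatic secretory trypsin inhibitor, stood at 13.67 and 13.66 against 4.22 and 4.26 without detection, at least 497-fold. S100P (at least 285-fold), a calcium-binding protein, AGR2 (at least 261-fold), a disulfide isomerase of mucous cells, PLAT (at least 254-fold), the tissue plasminogen activator, and GPX2 (at least 248-fold), the glutathione peroxidase of gut epithelium, followed. TFF2 (at least 235-fold), a trefoil peptide of gastric mucus, ANXA10 (at least 202-fold), a gastric annexin, and DMBT1 (at least 201-fold), a mucosal scavenger receptor protein, were the last of the 8. A second AGR2 probe was at least 9.48-fold higher in Capan-1. A second DMBT1 probe, near the detection limit at 4.64 and 4.84 in Capan-1, gave -0.41 and did not pass (limma adjusted p = 0.14).

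**Figure D2:**
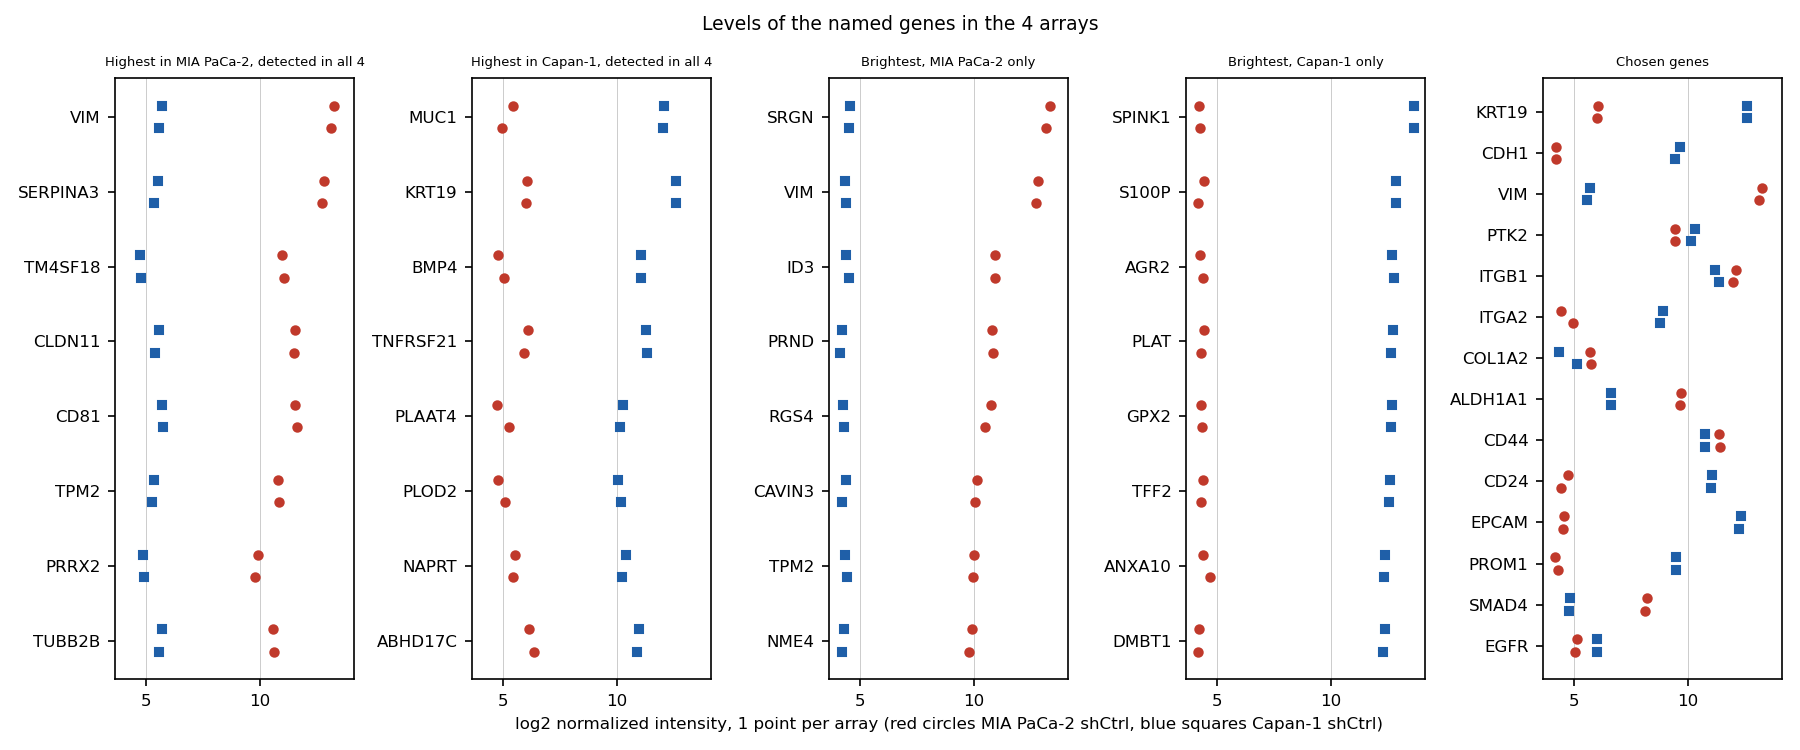
Log2 normalized intensity (x axis) of the named genes (y axis) in each of the 4 arrays, red circles for MIA PaCa-2 shCtrl and blue squares for Capan-1 shCtrl, in panels for the largest differences among probes detected in all 4 arrays, the highest-signal probes detected in 1 line alone and the chosen genes. The 2 arrays of a line lie close together, VIM at 13.28 and 13.14 against 5.71 and 5.60, and no gene shown has arrays of the lines that overlap.

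Gene groups were then described, with each gene standing for its member probe of highest mean signal. Over the 10930 genes so measured, 31.9% were higher in MIA PaCa-2, 32.5% were higher in Capan-1, and the median difference was -0.01. Among the 8342 genes detected in all 4 arrays these shares were 35.4% and 26.6% and the median was 0.10. Detection in Capan-1 alone applied to 11.7% of genes and in MIA PaCa-2 alone to 3.43%. Group medians are given from the fitted differences, and also with genes of 1 line alone set to their bound where that moved the median by over 0.1. The groups hold known members of a pathway or cell type, and each account names those of the 4 measured genes with the largest differences that are reported here, while further genes were picked after their values were seen.

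Junction and polarity genes were mostly found in Capan-1 alone. Of 37 such genes on the array, 34 were measured, 25 of them through Capan-1 alone, and 31 were higher in Capan-1, 0 were higher in MIA PaCa-2 and 3 (OCLN, PATJ and PKP3) did not pass. Their median was -3.27 (-3.06 with bounds). MAL2, a transport protein of the apical membrane, stood at 12.13 and 12.11 against 4.20 and 4.21 (at least 170.0-fold). SPINT2, an inhibitor of membrane serine proteases, was at least 122-fold higher. The 5 junction genes that were measured in all 4 arrays, CLDN1 (-4.43), DSG2 (-3.07), TJP1 (-1.31), EVPL (-1.20) and DSP (-1.06), were also higher in Capan-1. Desmosomal and adherens plakoglobin, JUP, was at least 41.8-fold higher there.

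Regulators of the epithelial state were less uniform. Among 18 of 22 that were measured, 13 were higher in Capan-1 and 3 in MIA PaCa-2, with a median of -0.86 (-0.66 with bounds) and a median of 0.28 over the 5 detected in all 4 arrays. ELF3, an epithelial ETS factor, was at 9.62 and 9.42 in Capan-1 and at 4.62 and 4.92 in MIA PaCa-2, with 1 array detected (-4.75). FOXA1 (at least 17.2-fold), FOXA2 (at least 6.86-fold) and KLF5 (at least 6.85-fold), factors of endoderm and gut epithelium, were found in Capan-1 alone. TP63, the basal epithelial p63, went the other way, at 7.32 and 7.01 in MIA PaCa-2 and undetected in Capan-1 (at least 5.92-fold), and ID1 (1.02) and ID2 (1.24) were also higher in MIA PaCa-2.

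The glandular and classical groups stood in Capan-1. All 11 measured mucins, trefoil factors and CEACAMs, of 28 on the array, were higher in Capan-1 (9 through Capan-1 alone), with a median of -3.48 (-3.17 with bounds). CEACAM6, an adhesion molecule of the carcinoembryonic antigen family, was at 11.37 and 11.30 against 4.40 and 4.28 (at least 98.8-fold), and TFF1 was at least 15.9-fold higher. Of 39 genes of the classical subtype, 33 were measured, 28 through Capan-1 alone, and 32 were higher in Capan-1 and 0 in MIA PaCa-2 (median -4.14, -3.90 with bounds). GPRC5A was the exception at 0.07. Only 2 of the 33 classical genes were detected in all 4 arrays, 1 of them higher in Capan-1. Of the 11 mucins, trefoil factors and CEACAMs 1 was so detected, MUC1 (-6.87). Genes of the basal-like and quasi-mesenchymal subtypes did not gather in MIA PaCa-2. Of 24 measured among 43, 5 were higher in MIA PaCa-2 against 12 in Capan-1, with a median of -0.42 that was -0.07 with bounds and 0.18 over the 16 genes detected in all 4 arrays. SLC2A3, the glucose transporter GLUT3, stood in MIA PaCa-2 alone (at least 23.2-fold), and KRT7, KRT17 (at least 3.06-fold) and FGFBP1 (at least 4.37-fold), a carrier of fibroblast growth factors, in Capan-1 alone.

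Of 40 endoderm and pancreas transcription factors 17 were measured, of which 13 were higher in Capan-1, 0 were higher in MIA PaCa-2 and 4 did not pass, with a median of -0.83 (-0.61 with bounds). ISL1 was at 7.80 in both Capan-1 arrays and undetected in MIA PaCa-2 (at least 8.55-fold), and FOXA3 was at least 5.38-fold higher. PDX1 (at least 1.34-fold) and GATA4 (at least 1.12-fold), found in Capan-1 alone, lay near the detection limit, and SOX9 (0.40), the ductal factor, did not pass. GATA6, often used to call the classical subtype, had 1 probe, which was not detected in any of the 4 arrays.

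Mesenchymal structural markers were divided. Only 15 of 35 were measured, 11 higher in MIA PaCa-2 against 4 higher in Capan-1, with a median of 1.46. That median was 3.42 over the 7 genes detected in all 4 arrays and 0.05 with no detection filter. Beside VIM and TPM2, MSN, the membrane linker moesin, was at 8.90 and 8.80 against 5.50 and 5.26 (3.46), TAGLN, an actin-binding protein of smooth muscle, at 8.36 and 8.42 against 5.05 and 4.90 (3.42), and COL5A2, a fibrillar collagen chain, was found in MIA PaCa-2 alone (at least 8.55-fold). ACTA2, smooth muscle actin, was found in Capan-1 alone (at least 2.88-fold), and CAV1 (-0.68, and 2.13 with sh1209 and 2.48 with sh1319) and S100A4 (-0.52) were higher there beside CDH2. Of 14 EMT transcription factors, 4 were measured and 1 passed, FOXC1, a forkhead factor, at 7.52 and 7.49 in MIA PaCa-2 against 8.86 and 8.92 in Capan-1 (-1.39). SNAI2, found in Capan-1 alone, TCF3 (0.10) and PRRX1 (0.12) did not pass, with limma adjusted p = 0.0883, 0.785 and 0.439.

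Different keratins were found in each line. Of 31 keratins 12 were measured, 7 higher in Capan-1, 2 higher in MIA PaCa-2 and 3 not past the test. KRT13, a keratin of stratified mucosa, was found in Capan-1 alone (at least 9.15-fold). The hair keratins KRT81, at 7.64 and 7.79, and KRT86, at 7.18 and 7.27, were detected in MIA PaCa-2 alone (at least 8.68-fold and 6.15-fold), and the group median was -1.42. These paralogs are close in sequence, and cross-hybridization between their probes was not tested.

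Integrins, the receptors through which FAK is activated, differed by subunit. Of 28 integrins and other collagen receptors 16 were measured, 6 higher in MIA PaCa-2 against 9 in Capan-1, with a median of -1.03 (-0.60 with bounds). ITGB1, the beta1 subunit of collagen receptors, was at 12.14 and 11.99 in MIA PaCa-2 against 11.19 and 11.36 in Capan-1 (0.79 ± 0.12, limma adjusted p = 0.000184), and its other 3 measured probes gave 0.68, 0.90 and, for a probe detected in MIA PaCa-2 alone, at least 2.99-fold. ITGA2, its collagen-binding partner, went the other way, at 8.94 and 8.81 in Capan-1 against 4.42 and 4.98 in MIA PaCa-2, where 1 array detected it (-4.17). ITGAV (-2.45), ITGB5 (-1.96) and ITGA6 (-1.92), subunits of vitronectin and laminin receptors, and ITGB2 (-2.13), a leukocyte subunit, were higher in Capan-1. Of the collagen-binding tyrosine kinases, DDR1 (-1.51) was higher in Capan-1, and DDR2 (at least 2.39-fold) was found in MIA PaCa-2 alone. The collagen gene COL1A2 was low in both lines with shCtrl, at 5.69 and 5.77 in MIA PaCa-2 against 4.37 and 5.16 in Capan-1, where 1 array detected it (0.97, limma adjusted p = 0.00249). A second COL1A2 probe, detected in MIA PaCa-2 alone, was at least 2.83-fold higher there. COL1A1 was detected in 1 of the 4 arrays.

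PTK2, which encodes FAK, was higher in Capan-1 with shCtrl. Its brighter probe stood at 9.45 and 9.46 in MIA PaCa-2 against 10.35 and 10.17 in Capan-1 (-0.80 ± 0.11, limma adjusted p = 5.57e-05), and a dimmer probe gave -0.93. The lines did not overlap on either probe. Of 40 focal adhesion proteins 32 were measured, 14 higher in MIA PaCa-2, 11 in Capan-1 and 7 not past the test, with a median of 0.14. LPXN (2.38), the paxillin relative leupaxin, and FERMT2 (2.69), the integrin activator kindlin-2, were highest in MIA PaCa-2, and PXN, paxillin, differed by 0.81. GRB7 (-2.19), an adaptor of FAK and ERBB2, and NEDD9 (at least 3.27-fold), a scaffold that docks on FAK, were higher in Capan-1. FAK's relative PTK2B (-0.43) did not pass.

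Laminin chains and hemidesmosome genes were higher in Capan-1 for 10 of the 14 measured of 22, and higher in MIA PaCa-2 for 2 (median -0.94, -0.78 with bounds). LAMB3 (at least 5.51-fold), a laminin chain of epithelial basement membranes, was found in Capan-1 alone, and LAMA5 was at 10.38 and 10.10 against 6.99 and 6.96 (-3.26). LAMA2, a laminin chain of muscle and mesenchyme, was found in MIA PaCa-2 alone (at least 3.83-fold), and COL17A1 (2.21) was higher there as well. Among metalloproteinases, plasminogen activators and inhibitors, 22 of 37 were measured, 11 higher in MIA PaCa-2 against 10 in Capan-1, with a median of 0.22. MMP1, interstitial collagenase, stood at 9.40 and 9.62 in MIA PaCa-2 and undetected in Capan-1 (at least 30.0-fold), whereas MMP7, matrilysin of glandular epithelium, stood at 10.76 and 10.55 in Capan-1 and undetected in MIA PaCa-2 (at least 61.8-fold). The plasminogen activators were likewise divided, PLAU (1.46) being higher in MIA PaCa-2 and PLAT found in Capan-1 alone.

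**Figure D3:**
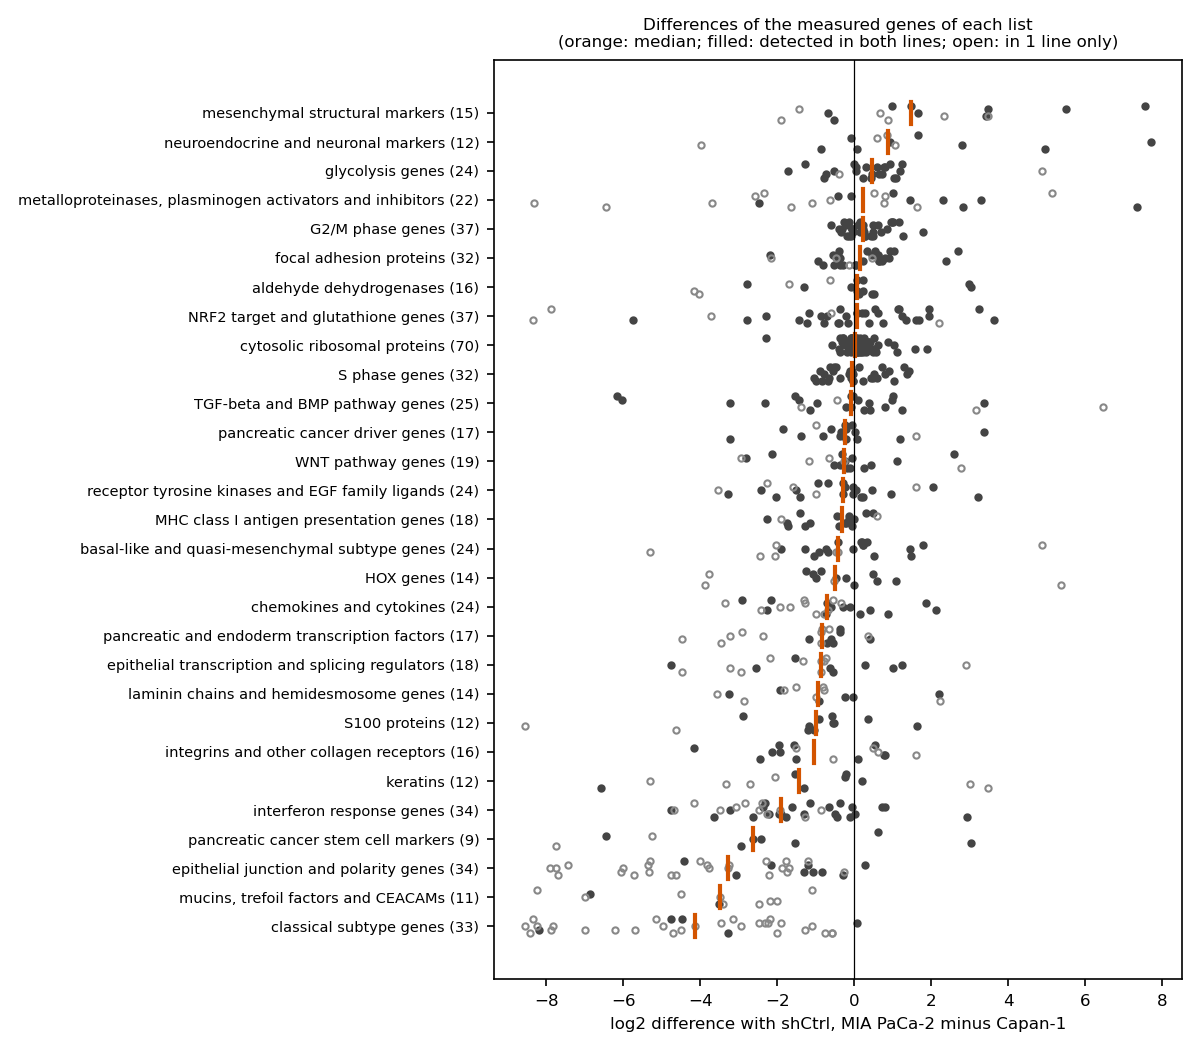
Log2 difference with shCtrl (x axis, MIA PaCa-2 minus Capan-1) of every measured gene of the 29 groups that had at least 9, with the number measured in brackets, filled points for genes detected in at least 1 array of both lines, open points for genes of 1 line alone and an orange bar at the median. The classical, mucin and junction groups lie left of 0, with medians of -4.14, -3.48 and -3.27, mesenchymal structural markers lie highest at 1.46, and cytosolic ribosomal proteins crowd around 0.03.

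The transforming growth factor beta and bone morphogenetic protein pathway differed at its ligands, receptors and mediator in opposite directions. SMAD4, the shared mediator and a tumor suppressor often lost in PDAC, stood at 8.20 and 8.14 in MIA PaCa-2 against 4.82 and 4.77 in Capan-1, just above the detection limit (3.37 ± 0.11, limma adjusted p = 4.01e-10). TGFBR2, the type II receptor, was at 6.38 and 6.31 in MIA PaCa-2 against 9.62 and 9.52 in Capan-1 (-3.22). Beside BMP4, GDF15, a distant family member, was higher in Capan-1 (-6.04), with 1 MIA PaCa-2 array detected, while BMP7 (at least 7.04-fold) was found in MIA PaCa-2 alone. ID1, ID2 and ID3, which are known targets of BMP signaling, were all higher in MIA PaCa-2. Of 40 pathway genes 25 were measured, 7 higher in MIA PaCa-2, 10 in Capan-1 and 8 not past the test, with a median of -0.08.

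Receptor tyrosine kinases and ligands of the EGF family leaned to Capan-1, with 24 of 43 measured, 11 higher in Capan-1 and 5 in MIA PaCa-2 (median -0.29, 0.04 over the 13 detected in all 4 arrays). TGFA, an EGF receptor ligand, was found in Capan-1 alone (at least 8.81-fold), and ERBB3 (-3.28), MET (-2.41), ERBB2 (-2.03) and EGFR (-0.94) were higher there. A dimmer EGFR probe gave -0.02 (limma adjusted p = 0.929). AXL, a receptor linked with mesenchymal cells, was at 8.13 and 8.31 in MIA PaCa-2 against 5.41 and 4.60 in Capan-1 (3.22). For the WNT pathway, 19 of 50 were measured, 4 higher in MIA PaCa-2 against 7 in Capan-1 (median -0.28), with the co-receptor LRP5 (-2.80) and the inhibitor DKK4 (at least 5.53-fold) higher in Capan-1 and the inhibitors NKD2 (2.60) and SFRP1 (at least 5.51-fold) in MIA PaCa-2.

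Interferon response genes were mostly higher in Capan-1. Of 39 on the array 34 were measured, 28 higher in Capan-1, 3 in MIA PaCa-2 and 3 not past the test, with a median of -1.91 (-1.14 over the 18 genes detected in all 4 arrays, of which 13 were higher in Capan-1 and 2 in MIA PaCa-2). OASL was at 9.11 and 9.09 against 4.39 and 4.43 without detection (at least 21.0-fold), SAMD9 was at least 12.7-fold higher, IFI44 differed by -4.75 with 1 MIA PaCa-2 array detected, and BST2, the antiviral tether tetherin, by -3.65. IFI16, a DNA sensor, went the other way (2.93). MHC class I and its processing genes had 18 of 20 measured, 9 higher in Capan-1 and 3 in MIA PaCa-2 (median -0.32). The heavy chains HLA-B (-1.73) and HLA-C (at least 3.24-fold), the light chain B2M (-1.73) and the immunoproteasome subunit PSMB8 (-2.27) were higher in Capan-1. Probes for HLA genes can read across alleles and paralogs, which was not tested.

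Chemokines and cytokines had 24 of 40 measured, 17 higher in Capan-1 (11 through Capan-1 alone) and 3 in MIA PaCa-2, with a median of -0.72 (-0.59 with bounds). CCL28 (at least 7.82-fold), CCL20 (at least 3.79-fold), CCL5 (-2.91) and CXCL5 (-2.26) led, whereas CXCL1 (2.11), CXCL8 (1.87) and CXCL2 (0.87) were the 3 that were higher in MIA PaCa-2. With sh1209 CXCL1, CXCL8 and CXCL2 differed by -3.08, -1.78 and -4.50, and their values with sh1319 are not given here. The hairpins were not alike in this group, whose median was -1.93 with sh1209 and -0.87 with sh1319. With the same hairpins CXCL5 differed by -6.43 and -1.92. S100 proteins were higher in Capan-1 for 10 of 12 measured of 19, among them S100A9 (at least 17.7-fold) and S100A16 (-2.88), and higher in MIA PaCa-2 for S100A3 (1.64) and S100A5 (0.37) (median -0.98).

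Markers used for PDAC stem cells went in different directions. ALDH1A1, the main aldehyde dehydrogenase of stem cell assays, was at 9.70 and 9.68 in MIA PaCa-2 against 6.66 and 6.63 in Capan-1 (3.05 ± 0.10, limma adjusted p = 5.37e-10). CD24 was at 11.07 and 11.01 in Capan-1 and at 4.75 and 4.44 in MIA PaCa-2, with 1 array detected (-6.44), and PROM1, which encodes CD133, was found in Capan-1 alone (9.48 in both arrays, at least 27.4-fold). CD44 differed by 0.62 and passed. In all, 9 of 20 such markers were measured, 7 higher in Capan-1 and 2 in MIA PaCa-2 (median -2.62). The ALDH family as a whole had 16 of 19 measured, 4 higher in MIA PaCa-2 against 6 in Capan-1 (median 0.07), with ALDH7A1 (2.98) higher in MIA PaCa-2, ALDH3A1 (at least 13.4-fold) and ALDH2 (at least 11.6-fold) found in Capan-1 alone and ALDH1A3 (-2.79) higher in Capan-1.

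Genes of the antioxidant factor NRF2 and of glutathione split evenly, with 37 of 40 measured and 16 higher in each line (median 0.07). GPX2 and AKR1C3 (at least 197-fold), an aldo-keto reductase, were found in Capan-1 alone, as was AKR1B10 (at least 9.89-fold), and the drug exporter ABCC3 differed by -5.74. GCLM (3.25), a subunit of the enzyme that starts glutathione synthesis, GSTM2 (3.63) and NQO1 (1.13) were higher in MIA PaCa-2. In glycolysis, 24 of 28 genes were measured, 14 higher in MIA PaCa-2 against 5 in Capan-1 (median 0.45). PFKL (1.24), a phosphofructokinase, was higher in MIA PaCa-2 beside SLC2A3, and HK2 (-1.28) and ALDOC (-1.71), a hexokinase and an aldolase, in Capan-1.

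Proliferation genes differed in both directions. Of 32 measured S phase genes 11 were higher in MIA PaCa-2 against 12 in Capan-1, and 9 did not pass (median -0.05), with DSCC1 lowest (-1.05) and CDCA7 highest (1.43), followed by RFC2 (1.37), POLA1 (1.28) and CHAF1B (1.03). Of 37 measured G2/M genes 14 were higher in MIA PaCa-2, 4 in Capan-1 and 19 did not pass (median 0.22), with CDC25C (1.78), NUF2 (1.26), BUB1 (1.17) and G2E3 (1.01) highest. Cytosolic ribosomal proteins served as a group of uniform high signal: 46 of 70 did not pass, 18 were higher in MIA PaCa-2 against 6 in Capan-1 (median 0.03). Differences of at least 1 in size were those of RPL37A (-2.29), RPS23 (1.90), RPS7 (1.59), RPL29 (1.10) and RPL17 (1.03). The other RPL37A probe passed in the opposite direction (0.71, limma adjusted p = 0.00243), and probes of these genes can share sequence with many processed copies.

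Among PDAC driver genes, 17 of 26 were measured, 3 higher in MIA PaCa-2, 6 in Capan-1 and 8 not past the test (median -0.24). Beside SMAD4 and TGFBR2, SMARCA2 (-1.85), a chromatin remodeling ATPase, was higher in Capan-1, and MAP2K4, a stress kinase, was found in MIA PaCa-2 alone by its brighter probe (at least 2.77-fold), while 1 Capan-1 array detected its other probe (0.63). The 9 that were not measured included CDKN2A, CDKN2B and MTAP, which are neighbours. Neuroendocrine and neuronal markers had 12 of 40 measured, 8 higher in MIA PaCa-2 against 2 in Capan-1 (median 0.89). SCG2, the granule protein secretogranin II, was at 12.38 and 12.44 in MIA PaCa-2 against 5.09 and 4.32 in Capan-1, with 1 array detected (7.70), and TUBB3 (2.81) was higher with TUBB2B, whereas CHGA, CHGB and SYP did not meet the detection rule. DPYSL3, a collapsin response mediator, was found in Capan-1 alone (at least 11.6-fold).

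HOX genes, which record position along the body axis, had 14 of 39 measured, 3 higher in MIA PaCa-2 against 8 in Capan-1 (median -0.50). HOXB8 was at 9.86 in both MIA PaCa-2 arrays and undetected in Capan-1 (at least 38.2-fold), while its neighbour HOXB7 was at 8.10 and 8.18 against 9.46 and 9.32 (-1.25). HOXA10 (at least 11.6-fold) and HOXA5 (at least 10.4-fold) were found in Capan-1 alone. Of 35 cancer-testis antigens 3 were measured, PRAME in MIA PaCa-2 alone (at least 5.62-fold) and DDX43 (at least 1.69-fold) and MAGEA1 (at least 1.26-fold) in Capan-1 alone.

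Few markers of other pancreatic, blood or vessel cells met the detection rule. Of 10 islet markers 0 were measured, and of 18 acinar markers 3, PRSS2 (at least 29.5-fold) and PRSS1 (at least 3.27-fold), the trypsinogens, in Capan-1 alone, and CPB1 (0.39). Trypsinogen genes are near-identical copies, and the probes may not separate them. Of 17 immune markers 4 were measured, LYZ in Capan-1 alone by its brighter probe (at least 171-fold), CD68 (-1.24), AIF1 (0.32) and CD79A (0.29), the last 2 not past the test, and PTPRC and CD3E did not meet the rule. The other LYZ probe was also detected in 1 MIA PaCa-2 array (-4.03). LYZ and CD68 are also made by epithelial cells. Of 11 endothelial markers 2 were measured, ESAM (-0.79) and ROBO4 (at least 1.27-fold, in MIA PaCa-2 alone), and PECAM1 and VWF did not meet the rule.

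Genes that neighbour each other were compared because both lines have rearranged chromosomes. In windows of 25 measured neighbours ordered by the RefSeq table, the highest median was 1.43 on chromosome 20 from PLCB4 to XRN2, where 18 genes were higher in MIA PaCa-2 against 4 in Capan-1. The window with the next highest median, 1.38, lay on chromosome 18 from HAUS1 to TXNL1 and held SMAD4, SMAD2 and SMAD7, with 22 genes higher in MIA PaCa-2 against 1 in Capan-1. The lowest was -1.28 on chromosome 17 from SMARCE1 to NAGLU, which held the type I keratins from KRT10 to KRT17, JUP and 3 STAT genes, 17 of the 25 higher in Capan-1 and 3 in MIA PaCa-2. The next was -1.11 on chromosome 8 from EXT1 to NSMCE2, with 19 higher in Capan-1 and 1 in MIA PaCa-2. With sh1209 and sh1319 the medians of these 4 windows were 1.39 and 1.34, 1.04 and 1.56, -1.21 and -0.92, and -0.90 and -1.01, in that order. The windows were picked as extremes of the shCtrl values, so their shCtrl medians are a description, whereas the levels of the hairpin arrays were not used to pick them, although all 12 arrays were normalized together.

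Whole chromosomes also differed. The median was 0.57 on the X chromosome, where 57.9% of 356 genes were higher in MIA PaCa-2 against 19.9% in Capan-1, 0.40 on chromosome 18, and 0.31 on both chromosomes 5 and 21. It was -0.32 on chromosome 8, where 47.6% of 399 genes were higher in Capan-1 and 16.3% in MIA PaCa-2, -0.31 on chromosome 15 and -0.28 on chromosome 13. With sh1209 and sh1319 it was 0.55 and 0.54 on the X chromosome, 0.32 and 0.25 on chromosome 18, and 0.26 and 0.26 on chromosome 5, but 0.08 and 0.37 on chromosome 21. On chromosome 8 it was -0.26 and -0.33, on chromosome 15 -0.41 and -0.44, and on chromosome 13 -0.14 and -0.25. Copy number was not measured on these arrays, and its part in these medians was not tested.

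**Figure D4:**
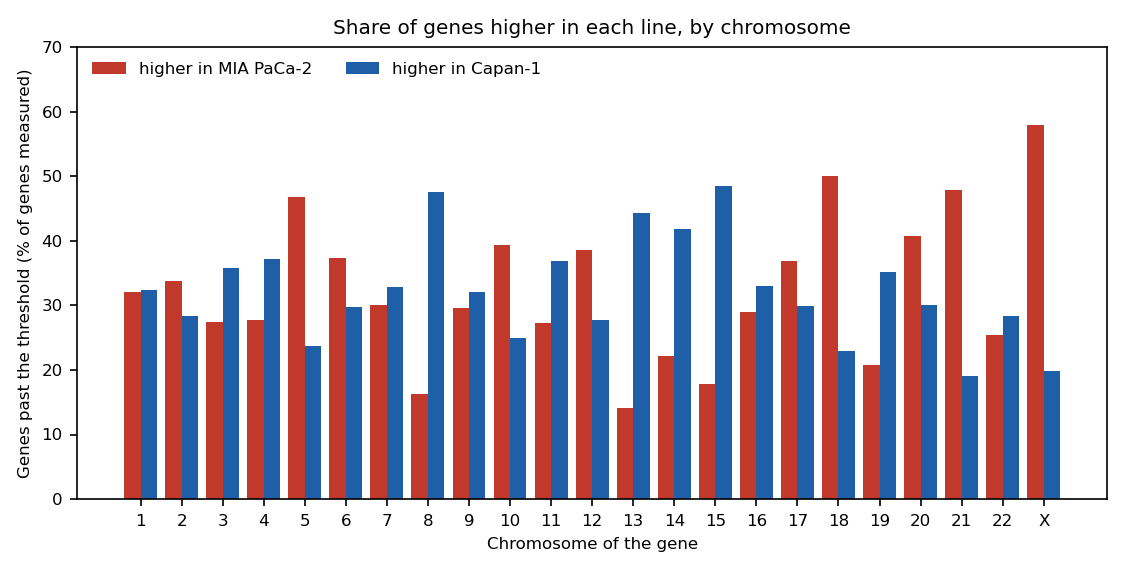
Percentage of measured genes (y axis) on each chromosome (x axis) that were higher in MIA PaCa-2 (red bars) or in Capan-1 (blue bars) at an adjusted p under 0.05 with shCtrl. Red exceeds blue most on the X chromosome, at 57.9% against 19.9%, and blue reaches its highest shares on chromosomes 8, 13 and 15, at 47.6%, 44.3% and 48.4%.

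Whether the lines differed in the same way once FAK was lowered was asked of the other 8 arrays. The brighter PTK2 probe was lower with both hairpins in both lines. It stood in MIA PaCa-2 at 7.28 and 7.14 (sh1209) and 6.92 and 7.03 (sh1319), and for Capan-1 at 9.66 and 9.63 (sh1209) and 8.48 and 8.49 (sh1319), all below the shCtrl arrays of the same line. The PTK2 line difference was therefore larger, -2.44 with sh1209 and -1.51 with sh1319. The dimmer PTK2 probe, at 4.54 to 6.03 over the 12 arrays, gave -0.16 and -0.75. In Capan-1 this probe was lower with both hairpins than with shCtrl. In MIA PaCa-2 it was not lower with sh1209, at 5.46 and 5.23 against 5.16 and 4.92 with shCtrl. With sh1319 it stood there at 4.98 and 4.54.

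The line difference was also taken with each FAK hairpin, from the levels of its own arrays, which share their normalization and the estimate of spread with the shCtrl arrays. With sh1209, 10800 probes (61.4%) passed and with sh1319, 10572 (60.2%). They divided into 5917 higher in MIA PaCa-2 against 4883 higher in Capan-1 with sh1209, and 5460 and 5112 with sh1319, but into 3240 and 5520, and 3521 and 5342, when arrays were scaled by their medians. Of the 10677 probes called with shCtrl, 9579 (89.7%) had the same sign with sh1209 and 9570 (89.6%) with sh1319, and 7888 and 7716 passed there with that sign. Among those with a size of at least 1, the shares of equal sign were 97.5% and 96.9%. The difference passed with 1 sign for all 3 hairpins for 6690 probes (62.7% of those called), and passed with the opposite sign with both FAK hairpins for 115. Across probes the line differences correlated at 0.862 with each FAK hairpin. The median of junction genes was -3.33 with sh1209 and -2.85 with sh1319. That of classical subtype genes was -3.83 and -3.29, and that of mesenchymal structural markers 2.13 and 2.48. Some other groups did not keep their medians. Integrins and other collagen receptors went from -1.03 with shCtrl to -0.15 with sh1209 and -0.48 with sh1319. Neuroendocrine and neuronal markers went from 0.89 to 0.17 and 0.0005. Metalloproteinases, plasminogen activators and inhibitors went from 0.22 to -0.97 and -0.47, and glycolysis genes from 0.45 to -0.11 and 0.67.

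A test of the change itself, the mean line difference with the FAK hairpins minus that with shCtrl, passed for 3861 probes (22.0%), 1970 upward and 1891 downward, and shares its shCtrl arrays with the first comparison. With median scaling 1700 passed, 523 upward and 1177 downward. Among probes called with shCtrl it passed for 2961. The change ran against the direction of the shCtrl difference for 1879 and along it for 1082. The 1879 were counted by direction alone, so a difference that turned its sign is among them whatever its size. Of the named genes, 8 moved by at least 3. MMP1 stood at 9.40 and 9.62 in MIA PaCa-2 with shCtrl and at 4.20 to 4.70 in the 4 FAK hairpin arrays of that line, against 4.31 to 4.40 in all Capan-1 arrays, so its line difference of 5.14 was 0.11 and 0.00 with the hairpins. TUBB2B also fell, from 10.61 in both MIA PaCa-2 shCtrl arrays to 7.30 and 7.35 with sh1209 and 4.59 and 4.45 with sh1319. Its line difference was 1.20 with sh1209 and turned to -1.26 with sh1319. KRT81 fell in MIA PaCa-2 from 7.64 and 7.79 to between 4.31 and 4.78.

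COL1A2 moved the other way. In MIA PaCa-2 it stood at 5.69 and 5.77 with shCtrl, at 8.44 and 8.42 with sh1209 and at 9.36 and 9.28 with sh1319, while the Capan-1 arrays lay between 4.37 and 5.16, so the line difference of 0.97 was 3.94 and 4.72 (limma adjusted p of the change 1.10e-05). BST2 was at 4.81 and 5.49 in MIA PaCa-2 with shCtrl and at 8.49 to 8.99 with the hairpins, near the 8.76 to 9.12 of Capan-1, and its difference of -3.65 was -0.38 and -0.02. ANXA10 came closer from both sides, with 9.73 and 10.00 in MIA PaCa-2 against 10.993 and 10.996 in Capan-1 with sh1319. CCL20 in Capan-1 was at 7.01 and 6.25 with shCtrl, 12.89 and 12.77 with sh1209 and 8.68 and 8.60 with sh1319, and was undetected in MIA PaCa-2 with shCtrl. SERPINA3 depended on the hairpin, its difference of 7.35 being 1.48 with sh1209, where the Capan-1 arrays stood at 8.26 and 8.23, and 5.69 with sh1319, where they stood at 4.77 and 4.84. ALDH1A1 differed by 5.05 and 3.97 with the hairpins, and VIM (7.39 and 7.00), CDH1 (-5.94 and -5.14) and EPCAM (-8.10 and -7.74) kept differences of the size seen with shCtrl.

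**Figure D5:**
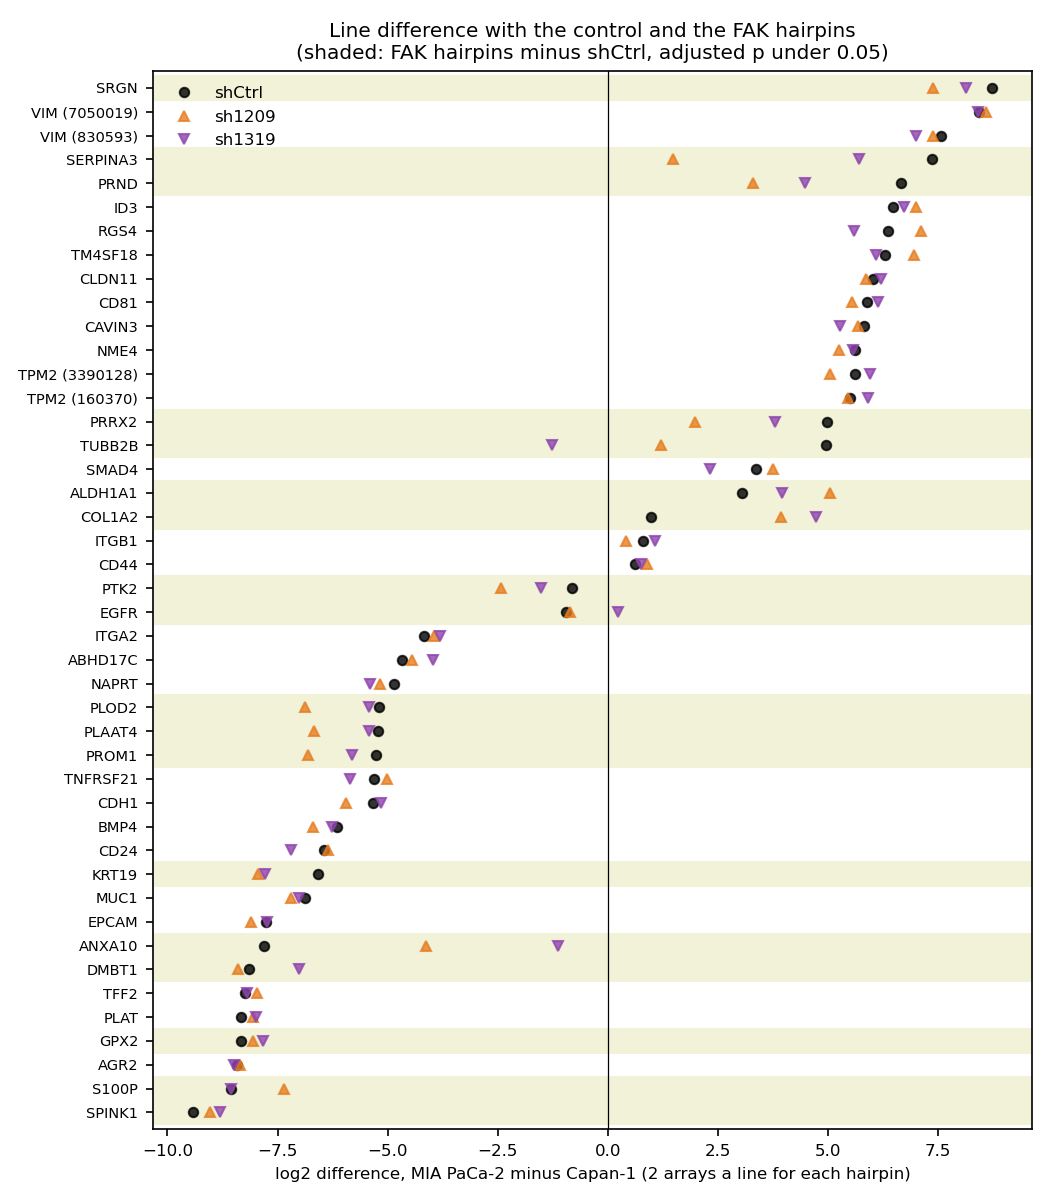
Log2 line difference (x axis, MIA PaCa-2 minus Capan-1, 2 arrays a line) of the named probes (y axis, probe number in brackets where a gene has several) with shCtrl (black circles), sh1209 (orange triangles) and sh1319 (purple triangles), shaded where the change with FAK hairpins passed an adjusted p of 0.05. Many probes keep their place with all 3 hairpins, whereas SERPINA3 falls from 7.35 to 1.48 with sh1209. With sh1319 TUBB2B falls from 4.96 to -1.26 and COL1A2 rises from 0.97 to 4.72. Other shaded probes include ANXA10, PRND, PRRX2, ALDH1A1, KRT19, PTK2 and PROM1.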

How the data were processed

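Total RNA, 500 ng a sample, was hybridized to 12 Illumina HT-12 v4 arrays, 2 for each of 3 hairpins in 2 lines. The deposited table held, for each array, a probe's average signal intensity and its detection p-value as exported by the authors, with GenomeStudio 2011.1 named in the submitters' processing notes. These intensities were neither background-corrected nor log-transformed, and 28 further columns held no values. Of 47320 rows, 92 spike-in rows were left out. Intensities were background-corrected by normexp with the detection p-values (offset 16), quantile-normalized and log2-transformed in R 4.3.3 with limma 3.58.1. A linear model over 6 groups of 2 arrays (6 residual degrees of freedom) was fitted to the 17576 probes, with moderated tests and a Benjamini-Hochberg adjusted p under 0.05. The study's methods name a t-test, which was run as an alternative. The number of arrays limits the precision.

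Probe names were brought to current RefSeq symbols, with 21041 of 34599 names matched, and 54 rows whose names had turned into dates were left unnamed. The probe with the highest mean over the 4 shCtrl arrays stood for a gene. Of 2803 genes with several probes, 69 had probes that passed in opposite directions. Genes were named by rule: a set of chosen markers and FAK-related genes, the 8 largest differences in each direction among probes detected in both lines, the 8 brightest detected in 1 line alone, and up to 4 genes with the largest difference in each list. A few genes that this rule or the lists include are not reported here. The comparison, its members and the gene lists were chosen with earlier results of these data known. Scripts were tested on simulated data. Alternatives were no background correction, an offset of 50, median scaling, other detection filters, a difference of at least 1, array weights, a replicate block, the 4 shCtrl arrays alone and leaving out each array.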

Additional observations from a re-analysis of the deposited data

Results flagged for a closer look

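The line difference of 62 of 145 named probes changed when FAK was lowered (largest limma adjusted p = 0.0447). The test was of the mean line difference with both FAK hairpins minus that with shCtrl. Over all 17576 probes, 3861 (22.0%) passed it. Many of the named probes were picked for large shCtrl differences, which this test uses again. The count of 62 and its split below therefore describe a chosen set. The values below are the changes on the log2 scale, all from 12 arrays that share the shCtrl arrays with the main comparison, and no explanation was tested. Narrower and wider refer to this mean of both hairpins. For 9 probes the hairpins lay on either side of shCtrl. KRT13 was at -3.34 with shCtrl, 0.80 with sh1209 and -4.91 with sh1319, and so turned its sign with sh1209 alone. With sh1319 alone CXCL5 (-1.92), ALDOC (-1.34), HLA-B (-1.27) and PRSS1 (-1.35) were narrower than with shCtrl (-2.26, -1.71, -1.73 and -2.01) and with sh1209 alone wider (-6.43, -3.67, -3.33 and -3.68). The other 4 were RPS23, DMBT1, S100P and SAMD9.

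The difference became narrower for 33 probes. Among genes higher in MIA PaCa-2 these were the protease MMP1 (-5.09), the tubulin TUBB2B (-4.99), SERPINA3 (-3.76), the keratin KRT81 (-3.27), PRND (-2.76), the WNT inhibitor SFRP1 (-2.76), the glucose transporter SLC2A3 (-2.31), PRRX2 (-2.08), ALDH7A1 (-1.22), S100A3 (-1.05), SRGN (-0.97), PRAME (-0.80), PFKL (-0.70), LAMA2 (-0.66), RFC2 (-0.60) and NKD2 (-0.59). Among genes higher in Capan-1 they were ANXA10 (5.19), the interferon response gene BST2 (3.45), AKR1B10 (2.45), KRT13 (1.28), LYZ (0.97), FOXA2 (0.87), TFF1 (0.72), DPYSL3 (0.68), EGFR (0.63), KRT7 (0.61), S100P (0.59), SAMD9 (0.55), DKK4 (0.53), SPINK1 (0.51), DMBT1 (0.45), MAL2 (0.40) and GPX2 (0.39).

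The difference became wider for 29 probes. Among genes higher in MIA PaCa-2 these were the collagen chains COL1A2 (3.35) and COL5A2 (1.89), ALDH1A1 (1.46), RPL29 (1.06), MSN (0.66) and RPS23 (0.53). Among genes higher in Capan-1 they were the chemokine CCL20 (-3.96), S100A9 (-2.40), TGFBR2 (-2.07), CXCL5 (-1.92), NEDD9 (-1.89), the laminin chain LAMB3 (-0.97), ITGB2 (-1.29), KRT19 (-1.28), PTK2 itself (-1.17), MMP7 (-1.16), PROM1 (-1.05), PLOD2 (-0.96), ESAM (-0.91), CEACAM6 (-0.84), PLAAT4 (-0.83), ALDOC (-0.80), HOXA5 (-0.76), FGFBP1 (-0.75), HOXB7 (-0.69), KRT17 (-0.61), HLA-B (-0.56), PRSS1 (-0.51) and MAGEA1 (-0.50).

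Of the 62, the change passed for 58 without background correction, for 60 with an offset of 50 and for 41 with median scaling, with 0 of opposite sign in each. The 8 with a size of at least 3 passed under all of these settings.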

How the results depend on the processing

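The count of probes that differed between the lines with shCtrl, 10677, lay between 7710 and 10662 under the other filters, scalings, weights and array sets, apart from a required difference of at least 1 (3970) and the methods' t-test, which called 8456 unadjusted and 5281 after Benjamini-Hochberg adjustment. A difference of at least 1 left 4650 probes with sh1209, 4290 with sh1319 and 898 for the change with the FAK hairpins, by the construction of that rule. Median scaling left 1700 for the change, and the cause was not tested. It moved the median difference of all probes from 0.05 to -0.05. Leaving out each array in turn gave 9081 to 9491 probes with shCtrl, 9489 to 9825 with sh1209, 9325 to 9556 with sh1319 and 2585 to 3582 for the change, the lone array left being assumed to vary like the others.

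Replicates with equal numbers did not deviate together, with a correlation of 0.01 for the shCtrl groups and of -0.08 to 0.20 over 15 pairs of groups, so the numbers were not taken as pairs. With the replicate number as a block, 10662, 10795, 10561 and 3812 probes passed, and no call of a named probe changed.

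Of 145 named probes, 139 kept their direction and side of the threshold under every alternative run. With median scaling TCF3 was at -0.12. Without 1 shCtrl array, TCF3 ranged from -0.22 to 0.42 and PRRX1 from -0.0023 to 0.24, neither past the threshold in the main test. Calls of CPB1, ESAM and ROBO4 were lost and that of SNAI2 gained under some alternatives. Of 357 list medians recomputed, 14 changed sign, in the acinar, aldehyde dehydrogenase, basal-like, EMT factor, epithelial regulator, immune, protease, NRF2, receptor kinase and TGF-beta lists. Another 93 shrank by over 1.5 times without a change of sign. With no detection filter the median fell in size from -3.48 to -0.15 for mucins, from -2.62 to -0.09 for stem cell markers, from -1.42 to -0.01 for keratins and from 1.46 to 0.05 for mesenchymal markers. Probes near background limit what can be said of ZEB1, PDX1, GATA4 and the EMT factors.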
